A study of Mus musculus with 2 samples.

Results

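The semaphorins, plexins and neuropilins are a family of guidance ligands and their receptors, and their transcripts were followed here in dorsal striatum of mice that had taken cocaine. Members were chosen by gene symbol, which took in class 3 to class 7 semaphorins, plexins A to D, both neuropilins and the plexin domain containing genes Plxdc1 and Plxdc2, 33 of the 32531 symbols counted. The family was picked with earlier results of these data known, so every difference below is a description of its members. Plxdc1 and Plxdc2 share a short domain with plexins but are not plexin receptors, and they are kept apart below.

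The escalating library came from mice whose cocaine intake escalated under long daily access to intravenous self-administration, and the nonescalating library from mice on the same regimen whose intake did not escalate. Both came from mice of the line Drd1-TRAP CP73, also labelled Drd1-EGFP/Rpl10a (CP73), whose bacterial artificial chromosome transgene expresses the ribosomal protein Rpl10a fused to EGFP under control of the dopamine receptor gene Drd1. Their FVB/N-Swiss Webster stock had been crossed to C57BL/6 for a minimum of 9 generations. The RNA was the input, that is, total RNA of the whole dissected tissue before any pulldown of tagged ribosomes, so all cell types of the tissue could contribute. The sources used here do not give age or the number of animals per library, and both groups had taken cocaine. With 1 library per group there is no replicate spread to set a difference against, and no test between the groups was made.

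Semaphorins bind plexins, whose intracellular part switches off small GTPases of the Ras and Rap families and so changes the actin skeleton and the adhesion of a growth cone or synapse. Secreted class 3 semaphorins mostly need a neuropilin to hold them to a plexin A, while membrane-bound classes 4 to 7 bind plexins directly. In the adult brain the family is known for limiting synapse number, for communication between neurons, glia and vessels, and, in mouse striatum, for the choice of thalamic inputs by projection neurons of the direct pathway.

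Reads assigned to genes numbered 9548358 in the escalating library and 9376097 in the nonescalating library. Counts were scaled with TMM (trimmed mean of M values, with a factor of 1.13 for the escalating library and one of 0.882 for the other) and are given as CPM, reads per 1000000 scaled reads, and ratios are escalating over nonescalating. Reads and CPM of these libraries are called escalating and nonescalating reads and CPM. Intervals are 95% intervals from the way a gene's reads divide between the libraries (Clopper-Pearson, exact), and they hold counting error alone. A gene was called when its ratio reached 1.5-fold in either direction and its interval excluded equality, among genes with at least 50 reads over both libraries. Scaling to total reads adds 0.36 to every log2 ratio, a shift that moved the median of all measured genes to 0.38, against 0.02 with TMM, and it is named where it changes the call or sign of a member or the counts of a list.

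Of the 31 members with enough reads, 18 were called lower in the escalating library, 1 was called higher and 12 were not called. Over all 12213 measured genes, 17.1% were called lower and 9.36% higher. Among members, 30 of 31 had a log2 ratio below 0, and their median was -0.71 beside a median of 0.02 over all measured genes. With total-read scaling 12 members were called lower and 1 higher, beside 9.4% and 31.5% of all genes, and the members' median was -0.35. At a 2-fold threshold 12 members were called lower and 0 higher, beside 8.88% and 2.04% of all genes. The ratios spanned a log2 range from -2.43 for Plxnb1 to 0.95 for Sema6c, and the members differed widely among themselves. In whole-tissue RNA, fewer cells of a type and less RNA per cell cannot be told apart.

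**Figure D1:**
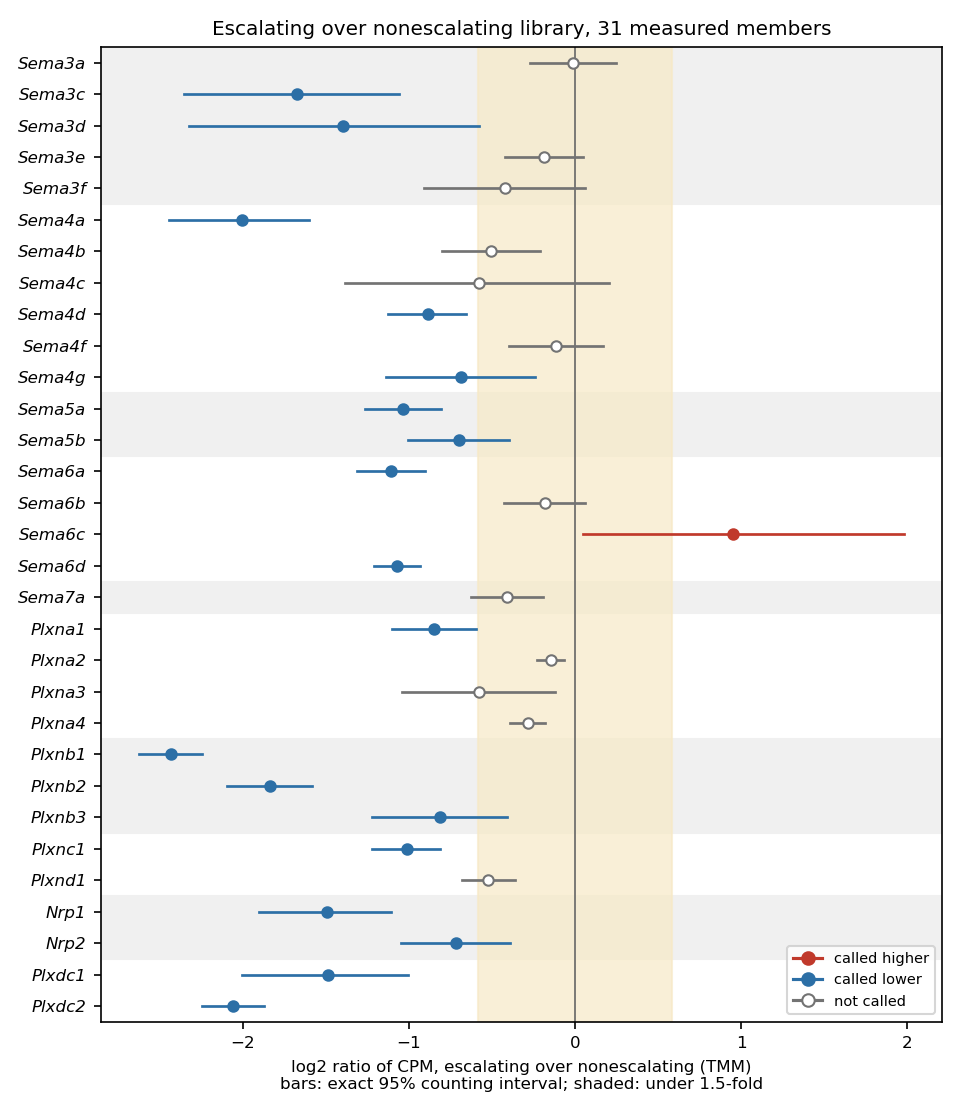
Log2 ratio of CPM (escalating over nonescalating, TMM scaling) for the 31 measured members, grouped by class in shaded bands, with exact 95% counting intervals as bars and 1 library per group. Filled points were called and open points were not. Plxnb1, Plxdc2, Sema4a and Plxnb2 lie farthest to the left, between -2.43 and -1.83, while Plxna2, Plxna4, Sema3a, Sema3e, Sema4f and Sema6b lie between -0.29 and -0.01.

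The start regions of Plxnb1, Plxnb2 and Sema4a, which had 3 of the 4 lowest ratios, and of Plxna2, which had the most reads of the family and was not called, are printed to show what lies around a listed start of members that were called and of 1 that was not. Each runs from 250 bases before to 50 after the start that RefSeq lists first (build GRCm38.p6), 5′ to 3′ on the gene's own strand, and capitals mark the GC box GGGCGG on either strand.
Plxnb1 promoter, chr9:109095186-109095485, plus strand: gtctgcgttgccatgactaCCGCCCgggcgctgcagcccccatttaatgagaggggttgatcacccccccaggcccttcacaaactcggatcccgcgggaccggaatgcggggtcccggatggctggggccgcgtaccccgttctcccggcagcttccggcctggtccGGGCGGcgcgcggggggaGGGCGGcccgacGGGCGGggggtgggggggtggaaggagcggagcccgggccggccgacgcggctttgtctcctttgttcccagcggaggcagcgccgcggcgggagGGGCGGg
Plxnb2 promoter, chr15:89180739-89181038, minus strand: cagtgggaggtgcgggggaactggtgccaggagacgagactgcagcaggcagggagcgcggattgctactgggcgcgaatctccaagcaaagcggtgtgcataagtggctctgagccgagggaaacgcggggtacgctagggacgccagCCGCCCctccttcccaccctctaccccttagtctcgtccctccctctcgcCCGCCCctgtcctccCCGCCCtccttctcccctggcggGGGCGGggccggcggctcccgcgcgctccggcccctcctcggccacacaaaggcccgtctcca
Sema4a promoter, chr3:88461133-88461432, minus strand: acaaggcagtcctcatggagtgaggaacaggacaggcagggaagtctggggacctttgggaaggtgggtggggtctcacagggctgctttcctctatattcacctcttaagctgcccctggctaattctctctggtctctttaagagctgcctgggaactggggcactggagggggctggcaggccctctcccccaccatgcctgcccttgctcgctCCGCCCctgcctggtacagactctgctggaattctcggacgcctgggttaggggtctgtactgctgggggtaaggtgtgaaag
Plxna2 promoter, chr1:194619579-194619878, plus strand: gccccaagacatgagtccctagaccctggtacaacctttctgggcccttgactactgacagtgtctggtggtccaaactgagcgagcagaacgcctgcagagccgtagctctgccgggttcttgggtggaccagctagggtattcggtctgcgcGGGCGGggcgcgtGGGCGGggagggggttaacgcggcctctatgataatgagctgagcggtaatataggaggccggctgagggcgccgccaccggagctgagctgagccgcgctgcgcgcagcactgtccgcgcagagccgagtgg
The GC box, the kind of site that Sp1 family factors bind, occurred 5 times in the Plxnb1, 4 times in the Plxnb2, 1 time in the Sema4a and 2 times in the Plxna2 window. GC content was 74.7% for Plxnb1, 70.3% for Plxnb2, 59.7% for Sema4a and 64.7% for Plxna2. The CCAAT box (its letters CCAAT), the TATA box (TATAAA) and the core of Sox factor sites (AACAAT) were searched as well, all on both strands. None of these was in the printed windows, and no matches overlapped there. RefSeq windows were matched for 26 members, and 20 of these held a GC box, against 35.9% of 27025 promoters of the same length. The GC box was in 10 of 14 windows of members called lower and in 8 of 10 of those not called, so its presence did not separate them. No member's window held TATAAA, against 14.2% of all promoters, 3 held CCAAT, against 37.9%, and 2 held AACAAT, against 10.9%. Median GC content was 65% in the members' windows and 52.7% over all promoters. A match of letters is not evidence of binding. RefSeq lists 4 starts for Sema4a and 2 for Plxnb2, and windows of the later ones were not searched. The Plxna2 window lies inside its GENCODE gene model, which begins at 194618218.

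The plexin B receptors showed the widest gap of any receptor class. Plxnb1, the receptor for Sema4d (chromosome 9, 109095389 to 109119917), had 286 reads in the escalating library, against 1180 in the nonescalating library, which is 26.4 escalating and 143 nonescalating CPM. It was 5.40-fold lower (4.74 to 6.16) and ranked 204th from the bottom among 12213 genes. Plxnb2, which binds Sema4c and Sema4g (chromosome 15, 89155549 to 89180788), had 178 escalating and 486 nonescalating reads, 16.5 escalating and 58.7 nonescalating CPM, and was 3.57-fold lower (3.0 to 4.26). Plxnb3, a receptor for Sema5a that is known from cells of the oligodendrocyte lineage (chromosome X, 73757090 to 73772514), had 90 escalating and 121 nonescalating reads, 8.32 escalating and 14.6 nonescalating CPM, and was 1.76-fold lower (1.33 to 2.34). All 3 plexin B genes were thus lower, with Plxnb3 the least so, and only Plxnb1 and Plxnb2 were still called with total-read scaling. Summed over the class, the level was 51.2 CPM in the escalating library, against 216 CPM in the nonescalating library.

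The plexin A receptors, which carry the signal of class 3 semaphorins bound to neuropilins and of class 6 semaphorins, were close in the libraries by comparison. Plxna2 (chromosome 1, 194618218 to 194816869) had 2733 reads in the escalating library, against 2312 in the nonescalating library, 253 escalating and 279 nonescalating CPM, a log2 ratio of -0.15 (-0.23 to -0.07). Plxna4 (chromosome 6, 32144268 to 32588192) had 1512 escalating and 1409 nonescalating reads, 140 escalating and 170 nonescalating CPM, a log2 ratio of -0.29 (-0.39 to -0.18). Neither reached 1.5-fold, and both ratios became positive with total-read scaling, at 0.22 for Plxna2 and 0.08 for Plxna4, so no direction can be given for them. Plxna1 was called lower, with 226 reads in the escalating library, against 311 in the nonescalating library (1.80-fold, 1.51 to 2.15), but not with total-read scaling. A noncoding gene on the opposite strand, Gm26811, covers 10.7% of the exon bases of Plxna1, and the sources used here do not say whether the counting used strand. Plxna3 had 77 escalating and 88 nonescalating reads and lay just short of the threshold, 1.49-fold lower (1.09 to 2.06).

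The remaining plexins differed from each other. Plxnc1, the receptor for Sema7a (chromosome 10, 94790866 to 94944835), had 321 reads in the escalating library, against 496 in the nonescalating library, 29.7 escalating and 59.9 nonescalating CPM, and was 2.02-fold lower (1.75 to 2.33) and called under either scaling. Plxnd1, which binds Sema3e and is known from direct-pathway projection neurons in mouse striatum (chromosome 6, 115954811 to 115995005), had 614 escalating and 674 nonescalating reads, 56.7 escalating and 81.5 nonescalating CPM, and was not called (log2 ratio -0.52, -0.68 to -0.36). Its ligand gene Sema3e had 322 escalating and 280 nonescalating reads and was not called either. Within a library, there were 0.524 Sema3e reads per Plxnd1 read in the escalating library (0.457 to 0.601), against 0.415 in the nonescalating library (0.36 to 0.478). These intervals overlap, which does not show that the balance was alike, and the difference itself was given no interval.

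The neuropilins, co-receptors for class 3 semaphorins and for vascular endothelial growth factor, were both lower. Nrp1 (chromosome 8, 128358604 to 128503363) had 80 reads in the escalating library, against 173 in the nonescalating library, 7.39 escalating and 20.9 nonescalating CPM, and was 2.83-fold lower (2.16 to 3.73). Nrp2 (chromosome 1, 62703285 to 62818695) had 141 escalating and 177 nonescalating reads, 13.0 escalating and 21.4 nonescalating CPM, and was 1.64-fold lower (1.31 to 2.06), a call that was lost with total-read scaling. Nrp1 made up 36.2% of neuropilin reads in the escalating library (29.9 to 42.9), against 49.4% in the nonescalating library (44.1 to 54.8), shares that do not depend on the scaling. These intervals are only just apart, and they may be too narrow because reads are not independent molecules.

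Plxdc2, a membrane protein that binds the secreted factor PEDF (chromosome 2, 16356304 to 16755839), was among the lowest ratios of the whole set. It had 315 reads in the escalating library, against 1003 in the nonescalating library, 29.1 escalating and 121 nonescalating CPM, and was 4.16-fold lower (3.67 to 4.74). Plxdc1, known as tumor endothelial marker 7 (chromosome 11, 97923238 to 97986444), had 51 escalating and 110 nonescalating reads and was 2.82-fold lower (2.01 to 4.01). Both were called under either scaling.

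Among the secreted class 3 semaphorins, Sema3c and Sema3d were lower and Sema3a, Sema3e and Sema3f were not called. Sema3a, a repellent that acts through Nrp1 (chromosome 5, 13125414 to 13602565), had 284 reads in the escalating library, against 219 in the nonescalating library, 26.2 escalating and 26.5 nonescalating CPM, a log2 ratio of -0.01 (-0.27 to 0.25). Sema3e (chromosome 5, 14025276 to 14256689) had 29.8 escalating and 33.8 nonescalating CPM, a log2 ratio of -0.19 (-0.42 to 0.05). Sema3f, a ligand of Nrp2, had 73 escalating and 75 nonescalating reads and was not called, with a log2 ratio of -0.42 (-0.91 to 0.06). The intervals of all 3 include equality, and the ratios of Sema3a and Sema3e changed sign with total-read scaling. Sema3c (chromosome 5, 17574281 to 17730268) had 30 escalating and 74 nonescalating reads and was 3.23-fold lower (2.08 to 5.11). Sema3d (chromosome 5, 12383385 to 12588948) had 18 escalating and 37 nonescalating reads and was 2.69-fold lower (1.49 to 5.02). The wide intervals of Sema3c and Sema3d come from their low counts. Sema3b had 2 escalating and 3 nonescalating reads and Sema3g 2 escalating and 1 nonescalating, too few for a ratio, and both lay at or under the level of 3 reads (0.277 CPM in the escalating library, against 0.363 CPM in the nonescalating library) that a count of 0 would allow.

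The membrane-bound class 4 semaphorins, most of which bind plexin B receptors, split the same way. Sema4a (chromosome 3, 88435959 to 88461182) had 64 reads in the escalating library, against 198 in the nonescalating library, 5.91 escalating and 23.9 nonescalating CPM, and was 4.05-fold lower (3.04 to 5.45). Sema4d, the ligand of Plxnb1 and a product of oligodendrocytes in mouse brain (chromosome 13, 51685529 to 51793747), had 255 escalating and 361 nonescalating reads, 23.6 escalating and 43.6 nonescalating CPM, and was 1.85-fold lower (1.57 to 2.18). Sema4g (chromosome 19, 44989101 to 45003397) had 78 escalating and 96 nonescalating reads and was 1.61-fold lower (1.18 to 2.20), the called member nearest to the threshold. Of these, only Sema4a was called with total-read scaling. Sema4f, which is found at glutamatergic synapses, had 231 reads in the escalating library, against 191 in the nonescalating library, and its log2 ratio was -0.11 (-0.40 to 0.17), which changed sign with total-read scaling. Sema4b had 189 escalating and 205 nonescalating reads and a log2 ratio of -0.50 (-0.80 to -0.21), and Sema4c 27 escalating and 31 nonescalating reads with -0.58 (-1.39 to 0.21), none of them called. Set against each other inside a library, there were 0.277 Sema4a reads per Sema4f read in the escalating library (0.207 to 0.367), against 1.04 in the nonescalating library (0.845 to 1.27), so Sema4a differed from Sema4f beyond counting error whatever the scaling. For receptor and ligand, there were 0.892 Sema4d reads per Plxnb1 read in the escalating library (0.75 to 1.06), against 0.306 in the nonescalating library (0.271 to 0.345).

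The class 5 semaphorins, which carry thrombospondin repeats, were both lower. Sema5a (chromosome 15, 32244810 to 32696341), known for limiting excitatory synapses in mouse, had 261 reads in the escalating library, against 409 in the nonescalating library, 24.1 escalating and 49.4 nonescalating CPM, and was 2.05-fold lower (1.75 to 2.40). Sema5b (chromosome 16, 35541145 to 35664732) had 165 escalating and 205 nonescalating reads, 15.2 escalating and 24.8 nonescalating CPM, and was 1.62-fold lower (1.32 to 2.01), a call that total-read scaling removed.

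The class 6 semaphorins, transmembrane ligands of plexin A receptors, held members of every kind. Sema6d, the semaphorin with the most reads in both libraries (chromosome 2, 124089969 to 124667770), had 716 reads in the escalating library, against 1150 in the nonescalating library, 66.2 escalating and 139 nonescalating CPM, and was 2.10-fold lower (1.91 to 2.31). Sema6a, a ligand of Plxna2 and Plxna4, had 316 escalating and 520 nonescalating reads, 29.2 escalating and 62.9 nonescalating CPM, and was 2.15-fold lower (1.87 to 2.48). Both were called under either scaling. Sema6b (chromosome 17, 56123085 to 56140343) had 301 escalating and 261 nonescalating reads, a log2 ratio of -0.18 (-0.43 to 0.06) that changed sign with total-read scaling. Sema6c (chromosome 3, 95160457 to 95174024) was the 1 member called higher, with 36 reads in the escalating library, against 14 in the nonescalating library (1.97-fold, 1.03 to 3.95). Its 50 reads are the fewest that the filter allows, and with a 99% interval it was no longer called. Sema7a, the lipid-anchored ligand of Plxnc1 (chromosome 9, 57940112 to 57962865), had 346 escalating and 351 nonescalating reads, 32.0 escalating and 42.4 nonescalating CPM, and was not called (log2 ratio -0.41, -0.63 to -0.19).

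Levels between genes were compared as CPM per kilobase of merged exons (GENCODE M21, basic set), since long transcripts collect more reads. On this scale Plxna2 was highest in both libraries, at 22.9 in the escalating library, against 25.3 in the nonescalating library. Below it the order differed. In the escalating library Plxna4 (10.9), Sema7a (9.70), Sema6d (9.21), Plxnd1 (8.22) and Sema6b (7.01) followed. In the nonescalating library Sema6d (19.3), Plxdc2 (17.5), Plxnb1 (16.5), Plxna4 (13.2) and Sema7a (12.9) followed. Plxnb1 thus stood 16th of 33 in the escalating library and 4th in the nonescalating library, and Plxdc2 12th in the escalating library, against 3rd in the nonescalating library. Sema3a stood 11th in the escalating library, against 20th in the nonescalating library, with a CPM per kilobase of 4.21 in the escalating library, against 4.25 in the nonescalating library. Sema3b and Sema3g were last in both. Neighbours in these orders often lie within counting error of each other, as Sema7a and Sema6d do in the escalating library.

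**Figure D2:**
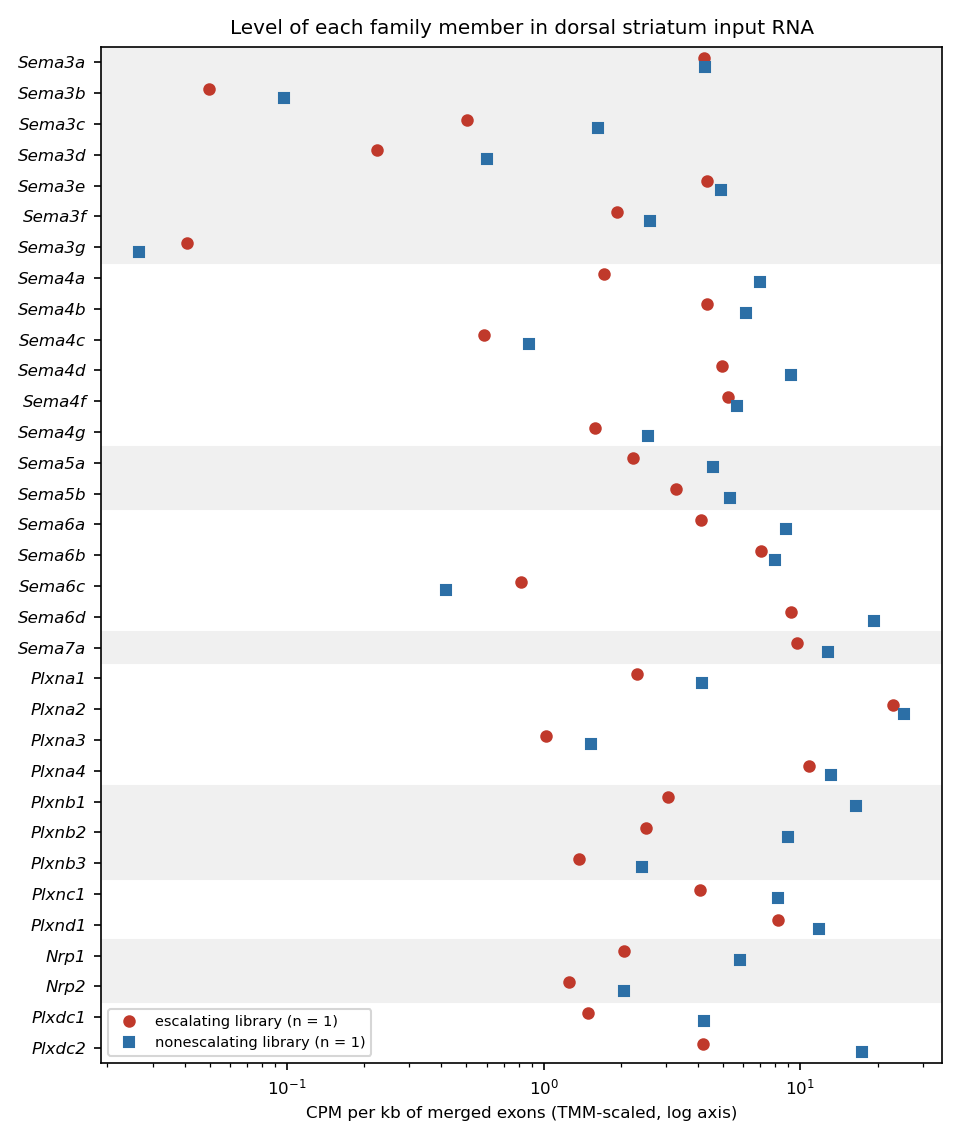
Level of all 33 members as TMM-scaled CPM per kilobase of merged exons on a log axis, with the escalating library as circles and the nonescalating library as squares (1 library each), grouped by class in shaded bands. Plxna2 is highest in both, at 22.9 in the escalating library, against 25.3 in the nonescalating library, while Plxnb1 lies at 3.06 in the escalating library, against 16.5 in the nonescalating library.

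Shares within a library need no scaling between libraries. Reads of plexin A genes made up 75.3% of all plexin reads in the escalating library (exact 95% interval 74.2 to 76.4), against 58.2% in the nonescalating library (57.1 to 59.4). Plexin B genes made up 9.18% (8.46 to 9.93) in the escalating library, against 25.3% (24.2 to 26.3) in the nonescalating library. Corrected for exon length, the plexin B share was 12.3% in the escalating library, against 30.3% in the nonescalating library. The plexin reads therefore leaned more to plexin A in the escalating library, by more than counting error. Inside the plexin B class, Plxnb3 took 16.2% of reads in the escalating library (13.3 to 19.6), against 6.77% in the nonescalating library (5.65 to 8.04), and Plxnb1 took 51.6% of escalating (47.4 to 55.9) and 66.0% of nonescalating plexin B reads (63.8 to 68.2). Plxnb1 and Plxnb2 also differed from each other, with 1.61 Plxnb1 reads per Plxnb2 read in the escalating library (1.33 to 1.95), against 2.43 in the nonescalating library (2.18 to 2.70).

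**Figure D3:**
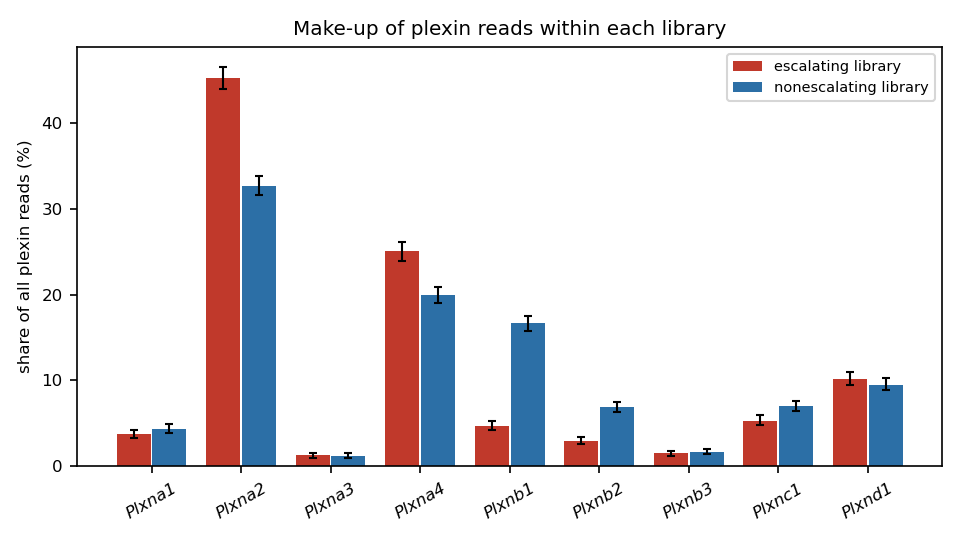
Share of each plexin gene in all plexin reads of a library, in percent, with exact 95% binomial intervals that cover counting error only; the escalating library is left of the nonescalating library for each gene. Plxna2 held 45.3% of plexin reads in the escalating library, against 32.7% in the nonescalating library, and Plxnb1 4.74% of escalating and 16.7% of nonescalating plexin reads.

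The make-up of semaphorin reads was closer. Class 3 genes took 19.7% of semaphorin reads in the escalating library (18.4 to 21), against 14.7% in the nonescalating library (13.7 to 15.8), and class 6 genes 36.8% of escalating (35.3 to 38.4) and 41.6% of nonescalating semaphorin reads (40.1 to 43.0). The class 4 share was 22.7% of escalating (21.4 to 24.1) and 23.1% of nonescalating reads (21.9 to 24.4), intervals that overlap. Inside class 4, Sema4a held 7.58% of reads in the escalating library (5.89 to 9.58), against 18.3% in the nonescalating library (16.0 to 20.7).

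Other genes around the pathway were taken from lists chosen with earlier results of these data known. Their counts can be read beside the 17.1% lower and 9.36% higher of all genes. With total-read scaling those shares of all genes were 9.4% lower and 31.5% higher. In a list of surface partners that includes semaphorin co-receptors such as L1cam and Nrcam, 8 of 13 measured genes were called lower and 0 higher, with a median log2 ratio of -0.86. Havcr2, an inhibitory receptor of immune cells, is on this list but is not an established semaphorin partner. It had 15 reads in the escalating library, against 209 in the nonescalating library, and was 18.2-fold lower (10.8 to 33.1). Ptprz1, a receptor phosphatase of glia, was 4.32-fold lower (4.07 to 4.58), with 1414 escalating and 4666 nonescalating reads. The VEGF receptor gene Kdr had 29 escalating and 67 nonescalating reads and was 3.02-fold lower (1.93 to 4.85), and the receptor kinase gene Erbb2, which pairs with plexin B, had 15 escalating and 35 nonescalating reads and was 3.05-fold lower (1.62 to 6.01). Of this list, 6 genes were still called lower when scaled to total reads.

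The list of intracellular effectors includes the collapsin response mediators and small GTPases. Of its 31 measured genes, 3 were called lower (9.68%) and 2 higher, beside 17.1% lower and 9.36% higher of all genes. Their median log2 ratio was -0.07, beside 0.02 over all measured genes. With total-read scaling it became 0.29, beside 0.38. Rnd3, a small GTP-binding protein, had 108 reads in the escalating library, against 235 in the nonescalating library and was 2.85-fold lower (2.26 to 3.61). Dpysl4, a collapsin response mediator, had 207 escalating and 85 nonescalating reads and was 1.86-fold higher (1.44 to 2.43). Tiam1, an activator of Rac, was the other gene called higher, at 1.51-fold (1.38 to 1.65) with 1497 escalating and 760 nonescalating reads; it lies outside the rule for named genes and was picked after its value was seen. The plexin partner Farp1 was 1.71-fold lower (1.42 to 2.05) and the GTPase gene Rap1a 1.67-fold lower (1.46 to 1.91), and neither was called with total-read scaling. Under that scaling 1 gene of the list was called lower and 8 higher, beside 9.4% lower and 31.5% higher of all genes. Among VEGF ligands and receptors 3 of 5 measured genes were called lower and 0 higher (median -0.77), namely Kdr, Vegfb at 2.06-fold (1.70 to 2.50) and Flt1 at 1.70-fold (1.47 to 1.98), and with total-read scaling 2 were. Vegfa itself had 463 escalating and 484 nonescalating reads and was not called.

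Markers of several cell types were also lower in the escalating library, and their part in the family's differences was not tested. Their counts can be read beside 17.1% lower and 9.36% higher of all genes, or 9.4% and 31.5% with total-read scaling. All 12 microglial markers were called lower, with a summed level of 34.9 CPM in the escalating library, against 1552 CPM in the nonescalating library and a median log2 ratio of -5.72, or -5.62 with Trem2, which had 0 reads in the escalating library, placed at 3 reads. All 12 astrocyte markers were called lower, with 2028 escalating and 15318 nonescalating CPM and a median of -2.04, and none was at 0; with total-read scaling 11 were called lower. Of 12 oligodendrocyte markers 9 were called lower (1555 escalating and 4066 nonescalating CPM, median -0.94), and of 10 endothelial markers 7 lower and Egfl7 higher (124 escalating and 209 nonescalating CPM, median -0.73). Of 6 measured mural markers Pdgfrb, Vtn and Abcc9 were called lower (60.0 escalating and 101 nonescalating CPM, median -0.70), and of 8 oligodendrocyte precursor markers Pdgfra and Gpr17 were lower and Neu4 higher (147 escalating and 200 nonescalating CPM, median -0.25). With total-read scaling 6 oligodendrocyte markers (median -0.58) and 4 endothelial markers (median -0.37) were called lower, and the precursor median changed sign to 0.11. None of these glial and vascular lists had a marker at 0 other than Trem2.

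Striatal projection neurons are the main neurons of the labelled tissue, and none of their markers was at 0 in either library. The 18 markers of striatal projection neurons summed to 12671 CPM in the escalating library, against 11429 CPM in the nonescalating library. Of them 2 were called lower and 1 (Ppp1r1b) higher, beside 17.1% and 9.36% of all genes, with a median log2 ratio of 0.00. With total-read scaling 1 was lower and 6 higher, beside 9.4% and 31.5% of all genes, at a median of 0.36. The same shares of all genes stand beside the neuron lists that follow. Of 7 measured interneuron markers Th was called higher (218 escalating and 208 nonescalating CPM), and 3 were with total-read scaling. Markers of cortical pyramidal neurons were present in both, with 120 escalating and 206 nonescalating CPM, 5 of 8 called higher and 2 lower (median 0.77), or 5 higher and 1 lower with total-read scaling (median 1.12). Among these were Neurod6, with 67 reads in the escalating library, against 13 in the nonescalating library, and Rorb, with 506 escalating and 1342 nonescalating reads. Rorb alone held 46.8 of the escalating and 162 of the nonescalating CPM of this list. In the nonescalating library 1 marker of the list was at 0. Beside these list medians, the most negative family members, Plxnb1 and Plxdc2, had log2 ratios of -2.43 and -2.06, and the members that were not called had ratios between -0.58 and -0.01.

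**Figure D4:**
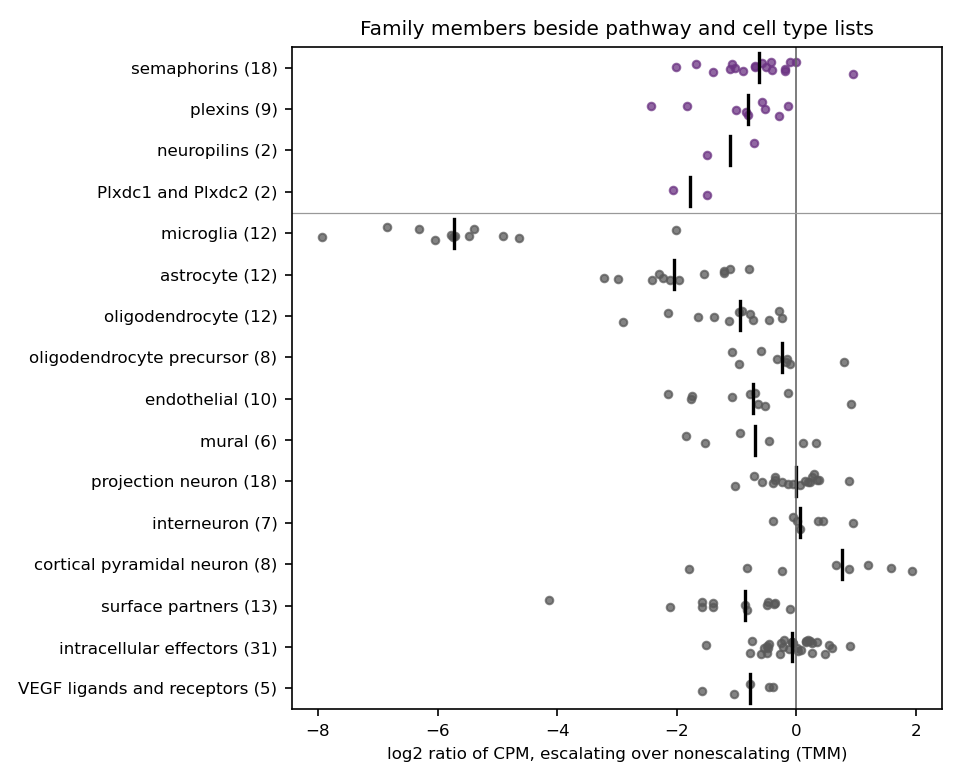
Log2 ratio of CPM (escalating over nonescalating, TMM scaling) of each measured gene, with family groups above the line and the pathway and cell type lists below it; the number of genes is in parentheses and black bars are medians. Microglial markers lie farthest left, at a median of -5.72, astrocyte markers at -2.04 and projection neuron markers at 0.00, and the plexins spread from -2.43 to -0.15.

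Some facts of the counting touch the libraries as wholes, and others touch single members. Reads that fell in more than 1 gene and were given to none made up 8.06% of the reads listed in the escalating library, against 18.9% in the nonescalating library, and reads that overlapped none of the counted features 28.6% of escalating and 18.1% of nonescalating reads. With 1 library per group, these gaps between whole libraries cannot be told apart from the group. Their part in the ratios was not tested. The sources used here do not give the feature type that was counted. In GENCODE M21, shared exon bases with another gene were at most 2.97% of any member's exons apart from Plxna1, that value being the overlap of Plxnb1 with the antisense gene Gm7628. The antisense transcript Plxna4os1 had 5 reads in the escalating library, against 3 in the nonescalating library beside the 1512 escalating and 1409 nonescalating reads of Plxna4. How these reads would be shared out under another counting was not tested.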

How the data were processed

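Total RNA of dissected dorsal striatum was sequenced as 1 library per group. Each deposited file lists a raw count of reads for every gene symbol. Per the submitters' processing notes, the authors used STAR 2.0.0e, HTSeq and build mm10; the sources used here do not give the annotation, strand setting or HTSeq version. Of reads listed, 53.8% in the escalating library and 55.3% in the nonescalating one were assigned to a gene, and rows that name no gene stayed out of library sizes.

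TMM factors came from edgeR 4.0.16 and alternative size factors from DESeq2 1.42.0 in R 4.3.3; neither tool's test was run, since a single library per group leaves no replicate error. Log2 ratios used a pseudocount of 0.5 reads scaled to library size, while folds are ratios of CPM without it. Reads are not independent molecules, so intervals may be too narrow. Every member with at least 50 reads is named, with the genes of each list that have the largest ratios. Members and lists were chosen with earlier results of these data known. In simulated data on 12213 genes with counting noise alone, 93.0% of genes set to differ 2-fold were recovered and 0.832% of unchanged genes were called. The simulated counts held only the noise that the intervals assume. These rates therefore check the calculation and are not error rates of the calls between the real libraries. Positions and exon lengths came from GENCODE M21 (GRCm38, the same assembly as mm10), which matched all 33 members, and promoters from RefSeq. Python 3.11.15, scipy 1.17.1 and pandas 2.3.3 did the rest.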

Additional observations from a re-analysis of the deposited data

How the results depend on the processing

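With scaling to total assigned reads the median log2 ratio became -0.35 over all members, -0.27 for class 6 semaphorins, -0.071 for plexin A and -1.47 for plexin B, and 6 members changed sign, none of them called. The 12 members called lower under all 6 scalings were Nrp1, Plxdc1, Plxdc2, Plxnb1, Plxnb2, Plxnc1, Sema3c, Sema3d, Sema4a, Sema5a, Sema6a and Sema6d. Total-read scaling alone set this list, since the other alternative scalings shifted log2 ratios by at most 0.07 from TMM. DESeq2 size factors, upper quartile factors, TMM without the 10 genes with the most reads and scaling to projection neuron markers each left 18 lower and 1 higher. A filter of 200 reads left 14 of 23 members lower and 0 higher and gave a class 6 median of -1.07, a 2-fold threshold left 12 lower and 0 higher, and a 99% interval 18 and 0. Filters of 10 or 1 read and a pseudocount of 5 left 18 and 1. Of 302 member ratios under alternatives, 282 stayed within the counting interval and 20 did not. All 20 came from scaling to total reads. The read filters and the 99% interval leave a ratio as it is, so those values could not move. No called ratio changed sign, but a shift of 0.36 is too small to turn a 1.5-fold ratio. No paired analysis was possible because each group has 1 library, and for the same reason no library could be left out. Genes with under about 50 reads, such as Sema3b and Sema3g, are beyond what this depth can resolve.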
